A study of Oryza sativa with 7 samples.

Results

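Roots of 14-day-old rice plants were compared with young panicles, the flower-bearing branches, taken before pollination. The comparison used 3 of the 7 RNA sequencing libraries of the series, chosen by their labels: the single root library and both libraries of flowers from panicles of 0.5 to 1.5 cm. All libraries are of Oryza sativa cultivar Ilmi, with no treatment or mutant allele named in the labels. The other 4 libraries, 2 of leaf at 14 days and 2 of seed at 20 to 30 days after pollination, served to estimate the spread between replicates and are shown beside the main values. The study, by its title, addresses alternative splicing across these organs, and counts were deposited for exon bins, the pieces into which each gene's annotated exons are divided. The labels do not say how many plants went into a library or whether replicates were grown separately. The p-values therefore cover the spread between these libraries alone, which may be technical.

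The root takes up water and mineral nutrients and anchors the plant, and it holds dividing tips together with older, differentiated tissue. The young panicle is made of branch and spikelet meristems and of floral organs at an early stage of formation, so a large part of it is dividing or newly formed tissue. A gene's transcripts can also differ between organs in where they start, where they end and which exons they hold, which shifts the share of the gene's counts that falls in each bin.

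Counts over bins came to 20940842 in root, 19717360 in panicle 1 and 16139784 in panicle 2. The counts rows that name no gene took 15.69%, 15.76% and 15.18% of all counts in these libraries. Their make-up differed: the row named ambiguous took 11.36%, 9.58% and 10.28%, and the row named empty 3.96%, 6.16% and 4.70%. Of these rows, the one for ambiguous read pair positions held 91317 counts in root, 39375 in panicle 2 and 6236 in panicle 1, and its part in the results was not tested. On the log2 CPM scale (CPM, a locus's count scaled to library size with edgeR's TMM factors) the panicle libraries correlated across loci at r = 0.962, and root with them at 0.674 and 0.673; loci are not independent replicates. The files give locus IDs without gene names, so loci appear by ID, the tissue labels could not be checked against marker genes, and no function is given. Bulk tissue was sequenced, so a lower level can mean fewer cells that express a locus or less of its RNA per cell, which cannot be told apart.

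Of 26784 tested loci, 7544 (28.2%) changed in level between root and young panicle. Of these, 4824 loci (18.0% of those tested) were higher in root and 2720 (10.2%) higher in panicle, by edgeR's quasi-likelihood test with a cutoff of 0.05 on the adjusted p and of 2-fold on the change. The changes towards root were also larger in size, with a median absolute log2 fold change of 4.07 against 3.31 towards panicle. Towards root 3075 loci changed 8-fold or more, against 1503 towards panicle. These are fitted values. Loci with no count in the lower organ were also set to their bound at 3 counts. The medians were then 3.94 and 3.11, and 3056 and 1426 loci reached 8-fold. The bound lies at 0.0566 CPM in panicle and 0.139 CPM in root, so it allows larger changes towards root. The median over all tested loci was -0.05 on the log2 scale. Root has 1 library, so its own spread is unmeasured and the test takes it to vary like the other organs. The number of calls rested on single libraries: it was 4111 (2545 towards root and 1566 towards panicle) without panicle 1 and 4376 (2773 and 1603) without panicle 2. Without leaf 1 it was 5025, with 1561 towards panicle, and without leaf 2 there were 1574 towards panicle. Without seed 1 and seed 2 the calls towards panicle rose to 4447 and 4446.

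Root differed from both panicle libraries in the same direction at 23506 tested loci (87.8%), and at every called locus, though the calls come from these same libraries. Both comparisons use the same root library, so part of this agreement in direction would arise without any difference. Root was 2-fold or more from each panicle library at 4767 of the 4824 loci called towards root and at 2684 of the 2720 called towards panicle, on the log2(CPM + 0.5) scale. Across all tested loci the panicle libraries differed from each other by a median of 0.25 in absolute log2 value, while root differed from them by 1.0 and 0.98. By effect size alone, 1967 loci (7.34%) were 8-fold or more higher in root than in each panicle library and 738 (2.76%) were 8-fold or more lower, again on this scale. With 5 in place of 0.5 added to the CPM these numbers were 661 and 137.

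**Figure D1:**
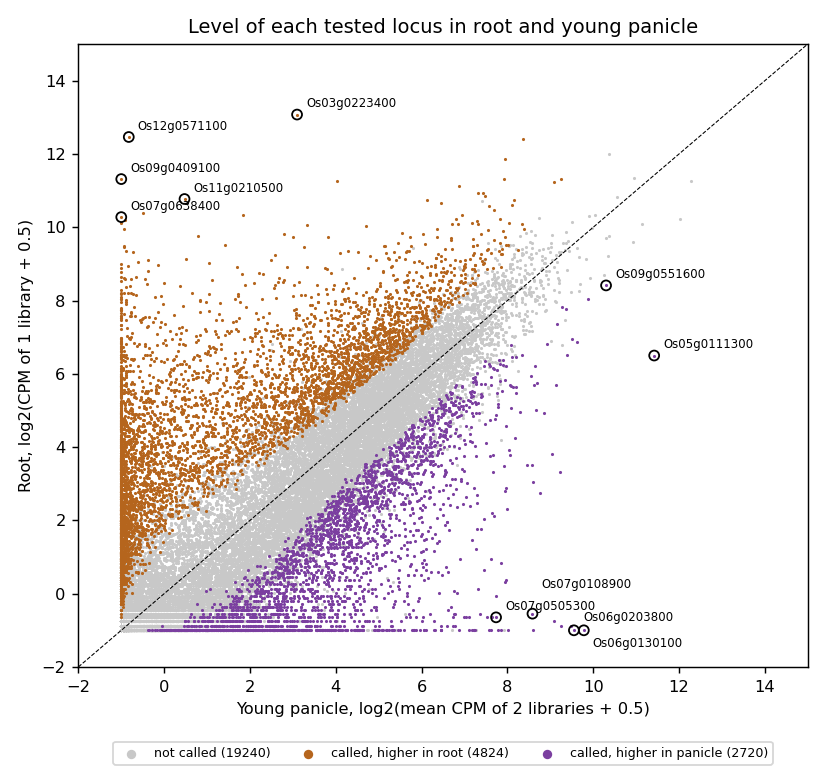
Level of each of 26784 tested loci in young panicle (x axis, log2 of the mean CPM of 2 libraries + 0.5) and in root (y axis, log2 of the CPM of 1 library + 0.5). Brown points are the 4824 loci called higher in root, purple points the 2720 called higher in panicle, grey points are not called, rings mark the loci described by ID, and the dashed line is equality. The brown points fill the left edge, where panicle has few or no counts, up to high root levels.

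Ranked by the smaller of both ratios on the log2(CPM + 0.5) scale, the first root locus of 100 CPM or more was Os12g0571100, a locus of 3 bins on chromosome 12 (chromosomes are read from the IDs). It had 121879 counts in root, none in panicle 1 and 3 in panicle 2, which is 5641 CPM against 0 and 0.129 CPM. The ratio of root to both panicle libraries was 99699, and counting error at 95% spans 34114 to 483457 (edgeR, adjusted p = 0.000719). Against panicle 1 alone it was at least 56102-fold higher, taking 3 counts as the upper limit of a count of 0, and against panicle 2 alone the ratio was 43597. The locus also had 13.8 and 7.53 CPM in leaf and 0.245 and 0.211 CPM in seed, so every other library lay far below root.

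Next came Os09g0409100, a locus of 1 bin on chromosome 9, with 54972 counts in root and none in either panicle or seed library. That is 2544 CPM in root, at least 44968-fold more than in panicle (edgeR, adjusted p = 0.000761). The leaf libraries held 17 and 39 counts, or 0.969 and 1.01 CPM. Root was thus the sole library above about 1 CPM. Bounds against panicle are 0.563 and 0.437 times as large when panicle 1 or panicle 2 alone is used, since 3 counts then weigh on fewer reads.

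In the other direction, the first locus by the same ranking was Os06g0130100, a locus of 31 bins on chromosome 6. It had 26516 and 20133 counts in panicle and none in root. Its panicle level was 879 ± 14.4 CPM (SD, n = 2), at least 6336-fold above root (edgeR, adjusted p = 0.000719). Leaf had 412 and 417 CPM and seed 22.2 and 24.3 CPM, so root was the organ that stood apart from the other 3.

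Os06g0203800, a locus of 27 bins on the same chromosome, had 19271 and 19734 counts in panicle and again none in root. The panicle level was 749 ± 145 CPM (SD, n = 2), at least 5298-fold above root (edgeR, adjusted p = 0.000997). It had 219 and 184 CPM in leaf and 17.6 and 47.3 CPM in seed. Both leading panicle loci were therefore above 10 CPM in all 6 libraries other than root.

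Counts of the single root library were somewhat more concentrated in abundant loci than those of either panicle library. The number of loci with any count was 26823 in root, 26823 in panicle 1 and 26276 in panicle 2. The 10 most abundant loci held 4.14% of counts in root, 3.26% in panicle 1 and 3.81% in panicle 2. On this measure panicle 2 lay closer to root than to panicle 1. It took 1287 loci to make up 50% of the root counts, and 1781 and 1620 loci in the panicle libraries. The 4824 loci called towards root held 43.4% of root counts and 9.37% and 8.77% of panicle counts, and the 2720 called towards panicle held 15.1% and 15.8% of panicle counts and 1.71% of root counts. The called sets come from these very libraries, so their shares describe size and are no separate evidence. A read that spans bins adds to all of them, so these are shares of bin counts and not of transcripts.

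The locus that weighed most towards root was Os03g0223400, with 11 bins on chromosome 3, which alone held 0.890% of root counts. It had 8623 CPM in root, and 2.11 and 14.0 CPM in panicle 1 and panicle 2. The log2 fold change was 10.07 (SE 1.16, edgeR adjusted p = 0.00209), and the ratio was 4084 against panicle 1 and 615 against panicle 2, so its size rests on which panicle library is used. Leaf (107 and 172 CPM) and seed (119 and 117 CPM) lay between root and panicle. Os12g0571100, described above, was the next by weight, at 0.582% of root counts.

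Towards panicle the locus of most weight was Os05g0111300, with 7 bins on chromosome 5. It held 0.301% and 0.501% of counts in the panicle libraries and 0.00927% in root, or 1987 and 3490 CPM against 89.9 CPM. The log2 fold change of root over panicle was -4.93 (SE 0.78, edgeR adjusted p = 0.00578). Seed, at 2979 and 2110 CPM, overlapped panicle, and leaf, at 774 and 1457 CPM, was also above root.

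Os09g0551600, with 8 bins on chromosome 9, followed with 1235 and 1282 CPM in panicle and 340 CPM in root. This change was small beside the others, at a log2 fold change of -1.89 (SE 0.48, edgeR adjusted p = 0.0274). It was not called without panicle 1, panicle 2, leaf 1 or leaf 2, where the highest adjusted p was 0.0850. Leaf had 660 and 614 CPM and seed 247 and 147 CPM, so here root lay between leaf and seed.

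**Figure D2:**
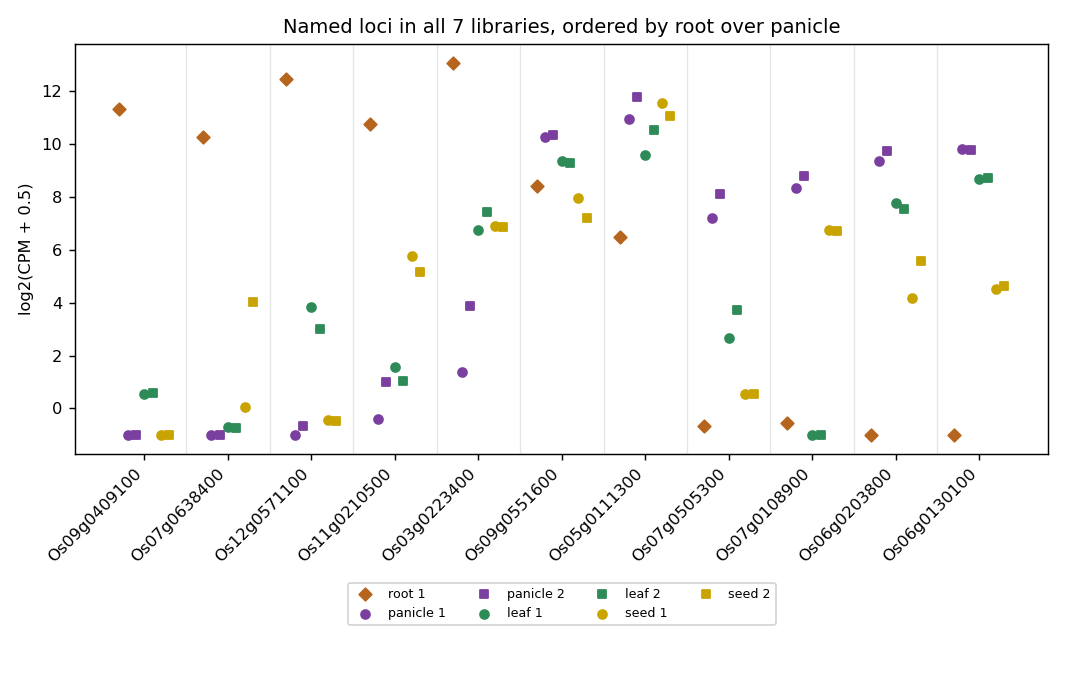
Level of the 11 loci described by ID in all 7 libraries, as log2(CPM + 0.5), ordered by fitted log2 fold change from the largest root excess on the left to the largest panicle excess on the right. Each point is 1 library. Root (brown) is the highest library at the 5 loci on the left, and both panicle libraries (purple) lie above root at the 6 on the right.

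Loci higher in root were more often highest in root among all 4 organs than loci higher in panicle were in panicle. By mean CPM, 3499 of the 4824 root loci (72.5%) had their highest level in root, 816 in leaf and 509 in seed. Of the 2720 panicle loci, 1658 (61.0%) had their highest level in panicle, 723 in leaf and 339 in seed. For comparison, root was the highest organ at 26.0% and panicle at 27.2% of all tested loci. A locus called towards root cannot be highest in panicle, nor the reverse, so the called shares exceed these in part by selection. Root rests on 1 library and the other organs on means of 2, and these counts come with no test.

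Called loci that were on in one organ and off in the other, taking a mean of 1 CPM as the border, were also counted. Loci that met this border without a call were left out. There were 2281 such root loci and 1190 such panicle loci. Of the root loci, 846 (37.1%) were over 1 CPM in root alone, 385 also in leaf, 234 also in seed and 816 in both. Of the panicle loci, 149 (12.5%) were over 1 CPM in panicle alone, 243 also in leaf, 201 also in seed and 597 in both. Among these called loci over 1 CPM in 1 organ alone, 42 reached 100 CPM in root and none did in panicle. Root is 1 library here and the other organs are means over replicates. A locus on in root alone could pass the count filter by that library. The loci were called from the same values, so these counts are a description and no separate evidence.

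One locus can stand for each pattern, chosen as the most abundant of its kind. Os09g0409100 was the root locus on in root alone, though leaf 2 by itself, at 1.01 CPM, would place it with those shared with leaf, and Os12g0571100 the one shared with leaf. Os07g0638400, with 3 bins on chromosome 7, was the one shared with seed. Panicle had no count of it, and root, at 1239 CPM, lay at least 21899-fold higher (adjusted p = 0.00606 by edgeR). Its place in the seed class came from 1 library, since seed 2 had 151 counts and seed 1 had 9, or 15.9 and 0.551 CPM.

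Os11g0210500, with 12 bins on chromosome 11, was the root locus that leaf and seed shared. It had 1745 CPM in root, 0.268 and 1.51 CPM in panicle, 2.45 and 1.58 CPM in leaf and 53.5 and 35.6 CPM in seed. The log2 fold change of root over panicle was 10.97 (SE 0.98, edgeR adjusted p = 0.00107). The ratio was 6508 against panicle 1 and 1156 against panicle 2, and without panicle 1 the panicle level is over 1 CPM, so its place in this class rests on that library.

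On the panicle side, Os07g0505300, with 3 bins on chromosome 7, was shared with leaf. It had 147 and 278 CPM in panicle, 5.82 and 12.6 CPM in leaf, 0.98 and 0.95 CPM in seed and 3 counts in root. The ratio of panicle to root was 1471, and counting error at 95% spans 503 to 7134 (edgeR, adjusted p = 0.00129). Os07g0108900, with 11 bins on the same chromosome, was shared with seed. It had 325 and 441 CPM in panicle, 108 and 105 CPM in seed, 4 counts in root and none in leaf, at a log2 fold change of root over panicle of -10.97 (SE 0.68, edgeR adjusted p = 0.000802). Os06g0130100, the leading panicle locus, was also the most abundant of those that leaf and seed shared.

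Some loci had counts in one organ and none in the other. There were 992 loci with 10 or more counts in root and none in both panicle libraries, of which 749 were called, and the highest had 54972 root counts. In the other direction, 586 loci had 10 or more counts in each panicle library and none in root, of which 408 were called. Of the 992 root loci, 168 had no count in leaf or seed either, against 10 of the 586 panicle loci. These loci were taken before the count filter. The rules are unlike, as panicle needed its counts in each library and root has a single library. A count of 0 allows a level of up to 0.139 CPM in root and 0.0566 CPM in panicle, which holds for counting error only.

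Loci called in the same direction lay next to each other in the genome's locus order more often than the overall share. After a locus called towards root, the next tested locus on the same chromosome was also called towards root in 1189 of 4824 cases (24.6%), where 18.0% of all tested loci were. The next locus was called towards panicle in 8.69% of cases, below the overall 10.2%. After a locus called towards panicle, 15.3% of next loci were called the same way and 14.3% the other way. Runs of 4 or more neighbouring tested loci with the same call numbered 59 towards root and 17 towards panicle. They held 275 of the 4824 loci called towards root and 86 of the 2720 called towards panicle. More calls make more runs, so these numbers do not compare clustering between the directions. Neighbours can be near-identical copies whose reads are split or lost in counting, or can overlap, and neither was tested.

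The longest root run, chosen after its values were seen, was of 9 loci on chromosome 8, from Os08g0189100 to Os08g0190100. Each of the 9 has 2 bins. Together they had 379 CPM in root and 1.51 and 0.690 CPM in panicle, and 6 of them had no count in panicle. Their root levels were far apart: Os08g0189200 had 181 CPM and Os08g0189300 had 162 CPM, while Os08g0189700 had 1.34 CPM. The smallest change in the run was at Os08g0189600, with 9.16 CPM in root and 1.17 and 0.604 CPM in panicle, a log2 fold change of 3.35 (SE 0.98, edgeR adjusted p = 0.0441).

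Seed did not share 1 pattern over this run. At its first member, Os08g0189100, seed had 6977 and 9942 CPM, while root had 2.55 CPM and panicle 0.0335 CPM and no count. At Os08g0189200, the next locus, seed had 2.39 and 17.6 CPM and root had 181 CPM. At the last member, Os08g0190100, root had 13.1 CPM while seed had no count in 1 library and 0.422 CPM in the other. Root was therefore the highest organ at 8 of the 9 loci, and seed at the first.

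The longest panicle run, also chosen after its values were seen, was of 10 loci on chromosome 7, from Os07g0136300 to Os07g0137900. Root had no count at 5 of them and 5 counts or fewer at 9. The tenth, Os07g0137900, had 50.2 CPM in root against 117 and 128 CPM in panicle, a log2 fold change of root over panicle of -1.29 (SE 0.34, edgeR adjusted p = 0.0303). The highest panicle level among the members with no root count was at Os07g0136500, with 69.6 and 42.6 CPM in panicle and no count in root, at least 416-fold higher (adjusted p = 0.000860 by edgeR).

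In this run, too, the other organs went different ways. Os07g0136500 had 0.114 and 0.052 CPM in leaf and 9.43 and 8.86 CPM in seed. Os07g0136800, a locus of 23 bins, had 43.3 and 16.6 CPM in panicle and 63.9 and 50.6 CPM in seed, so seed was above panicle. At Os07g0137600 leaf (60.5 and 33.1 CPM), panicle (46.5 and 43.7 CPM) and seed (69.7 and 36.6 CPM) overlapped, and root, at 0.0926 CPM, was the organ that differed.

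**Figure D3:**
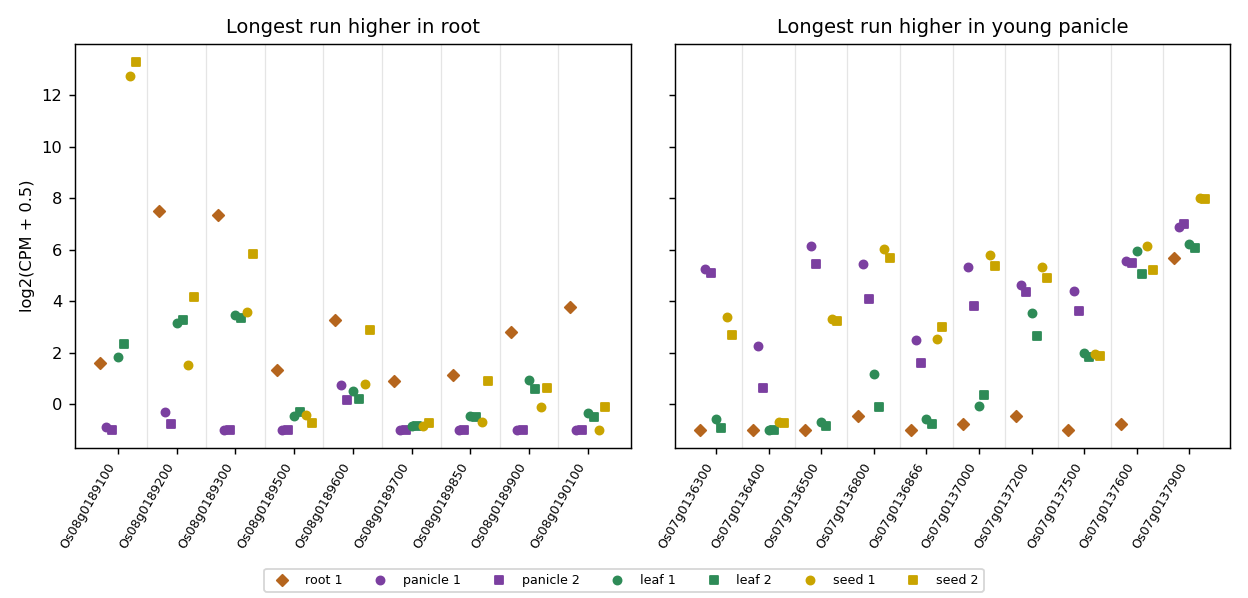
Levels in all 7 libraries, as log2(CPM + 0.5), of the longest runs of neighbouring loci with the same call: 9 loci of chromosome 8 higher in root (left) and 10 loci of chromosome 7 higher in young panicle (right), in locus order. Each point is 1 library. Seed is the highest organ at the first locus of the left run, and root is the lowest at every locus of the right run, tied with leaf at 0 at the second.

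Calls were found on all 12 chromosomes, as read from the locus IDs. The share called towards root ran from 15.7% on chromosome 9 to 19.3% on chromosome 6, and towards panicle from 9.19% on chromosome 10 to 11.9% on chromosome 12. By gene structure, loci of 1 bin made up 19.5% of those called towards root, 15.9% of those called towards panicle and 21.5% of all tested loci. Loci of 1 bin also had low levels, with a median of 0.88 in log2 CPM against 5.53 for loci of 10 or more bins. In the fifth of loci with the lowest level, 12.6% were called towards root and 2.54% towards panicle, and in the fifth with the highest level 22.1% and 10.2%. Both directions had their smallest share of calls at the lowest levels.

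Exon usage differed between root and panicle in 23 of 18512 tested loci, 0.124% of them, by edgeR's test of each bin against its own locus (adjusted Simes p under 0.05). At an unadjusted p under 0.05 there were 620 loci (3.35%), fewer than the 5% such a cutoff passes when nothing differs. Within the 23 loci, 32 of 117658 bins (0.0272%) passed as well, 24 with the larger share in root and 8 with the larger share in panicle. The bins larger in root held a median of 5.58% of their locus in root and 0.133% in panicle, and 6 of them had no count in panicle. Those larger in panicle held a median of 7.86% there and 0.192% in root, and 2 had no count in root.

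The number of usage calls also rested on single libraries. It was 8 loci without panicle 1 and 4 without panicle 2, 9 and 16 without leaf 1 and leaf 2, and 45 and 49 without seed 1 and seed 2. All 4 loci called without panicle 2 were among the 23, as were 4 of the 8 called without panicle 1. A level call was present too at 10 of the 23, 8 towards root and 2 towards panicle, and absent at 13. That is 43.5%, where 28.2% of all loci tested for level were called. The latter set is unlike, as it includes loci of 1 bin, of which 16.3% were called towards root and 7.50% towards panicle. The level is a sum of the same bins, so the calls are not independent. Of the 32 bins, 10 were the last and 3 the first of their locus, 40.6% in all, where first and last bins made up 28.1% of tested bins. First and last go by bin number alone, which was not matched to the start or end of a transcript. In 7 loci more than 1 bin was called, and in 5 of these the called bins were adjacent.

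Leaf and seed separated the organs at some of these bins. Root counts as outside their range by its 1 library and panicle only where both libraries are outside on the same side, so root meets the rule more easily. At 13 of the 32 bins the root share lay outside the range of the 4 leaf and seed libraries and the panicle shares did not both do so. At 4 bins both panicle libraries lay outside that range on the same side and root within it, at 11 both organs were outside, and at 4 neither was.

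**Figure D4:**
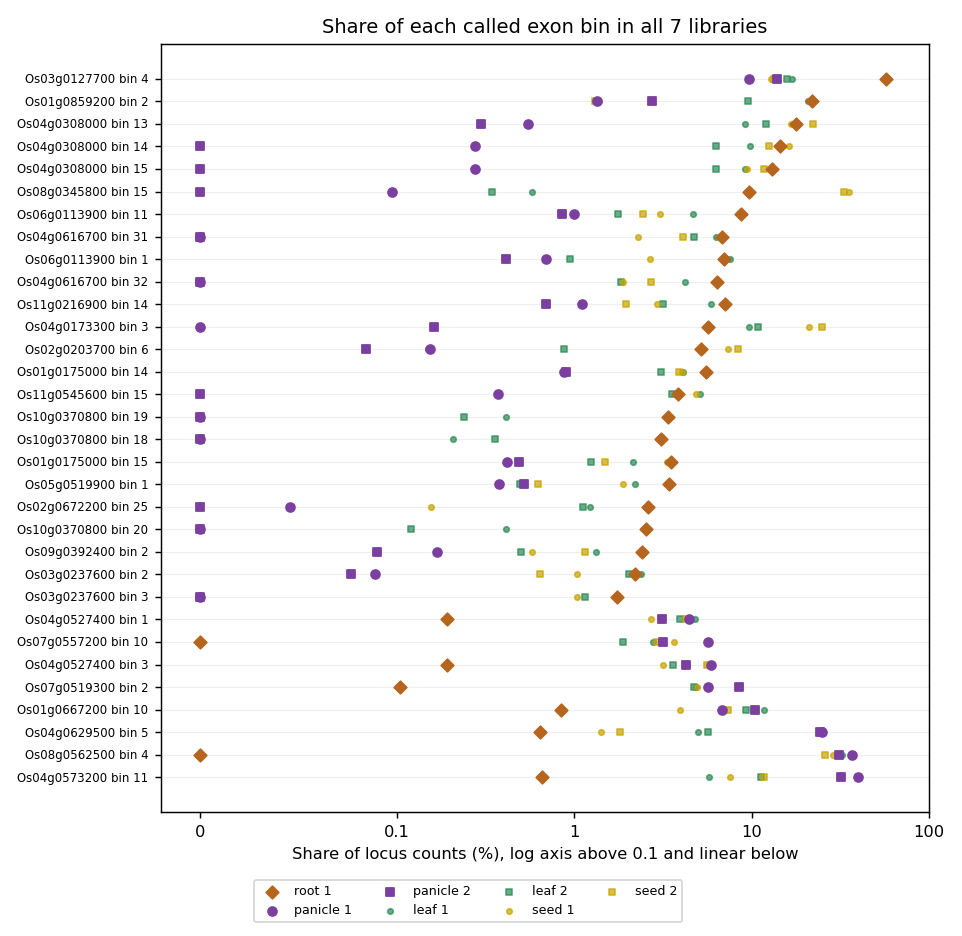
Share of locus counts held by each of the 32 called bins in all 7 libraries (x axis, percent, logarithmic above 0.1 and linear below), ordered by the difference between root and the panicle mean. Large symbols are root (brown diamonds) and panicle (purple), and small symbols are leaf (green) and seed (yellow). The top 24 bins are larger in root and the bottom 8 larger in panicle.

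Called bins were ranked in loci of 200 or more counts in root and in each panicle library. In percentage points, the largest shift towards root was in bin 4 of the 5 bins of Os03g0127700 on chromosome 3. This bin held 57.4% of the locus's counts in root (496 of 864 counts, 95% Wilson interval 54.1% to 60.7%, counting error only), and 9.64% and 13.9% in panicle. Its log2 change in usage was 1.60 (edgeR, adjusted p = 0.0403). Leaf had 16.9% and 15.9% and seed 12.9% and 13.3%, so root differed from all 6 other libraries. The seed shares rest on few counts, 9 of 70 in seed 1 and 4 of 30 in seed 2.

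Shares of a locus sum to its whole, so other bins were smaller in root. Bin 3 of this locus held 29.7% in root and 65.6% and 57.1% in panicle. The level of Os03g0127700 was not called, with 40.0 CPM in root, 29.6 and 23.0 CPM in panicle and a log2 fold change of 0.60 (SE 0.38, edgeR adjusted p = 0.257). The call on bin 4 was lost without panicle 1, panicle 2, leaf 1 or leaf 2 (edgeR, adjusted p = 1.0, 0.947, 0.104 and 0.0955) and with replicate number as a block (edgeR, adjusted p = 0.0686). Its direction was the same in all 10 alternatives, where the log2 change ran from 1.42 to 3.37.

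Bin 2 of the 9 bins of Os01g0859200 on chromosome 1 held 21.8% of counts in root (44 of 202, 95% Wilson interval 16.6% to 28.0%) and 1.34% and 2.75% in panicle. The log2 change in usage was 2.41 (edgeR, adjusted p = 0.0258). Leaf 1, at 20.7%, lay within the root interval, leaf 2, at 9.53%, lay between root and panicle, and seed, at 1.37% and 1.31%, was close to panicle 1. The root share rests on 44 counts, and the call was lost without panicle 1, panicle 2, leaf 1 or leaf 2 (edgeR, adjusted p = 1.0, 0.650, 0.104 and 0.0646), with voom and diffSplice (adjusted p = 0.0539) and with the block (edgeR, adjusted p = 0.187).

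Towards panicle, bin 11 of the 13 bins of Os04g0573200 on chromosome 4 held 39.8% and 31.8% of counts in panicle and 0.656% in root (11 of 1677, 95% Wilson interval 0.367% to 1.17%). The log2 change in usage of root over panicle was -3.99 (edgeR, adjusted p = 1.23e-05). Leaf (5.78% and 11.3%) and seed (7.59% and 11.7%) lay between the 2 organs. Bins 7 and 8 of this locus held 31.0% and 30.7% in root, and in panicle 11.5% and 15.6% for bin 7 and 14.4% and 17.4% for bin 8. The level was not called, at a log2 fold change of 0.71 (SE 0.30, edgeR adjusted p = 0.118). The usage call was kept in all 10 alternatives run, with adjusted p from 9.02e-06 to 0.00203.

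The last bin of the 5 bins of Os04g0629500, also on chromosome 4, held 25.0% and 24.3% in panicle and 0.639% in root (29 of 4541, 95% Wilson interval 0.445% to 0.916%). The log2 change in usage was -3.65 (edgeR, adjusted p = 3.07e-05), and the call was kept in all 10 alternatives run, with adjusted p from 6.25e-06 to 0.0191. Leaf had 4.98% and 5.70% and seed 1.41% and 1.81%, so both panicle libraries stood above all others. The locus itself went the other way, with 210 CPM in root and 84.4 and 80.7 CPM in panicle, a log2 fold change of 1.35 (SE 0.37, edgeR adjusted p = 0.0367). The bin's own counts were 29 in root and 629 and 454 in panicle, so the bin's count was lower in root while the level of the locus was higher.

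**Figure D5:**
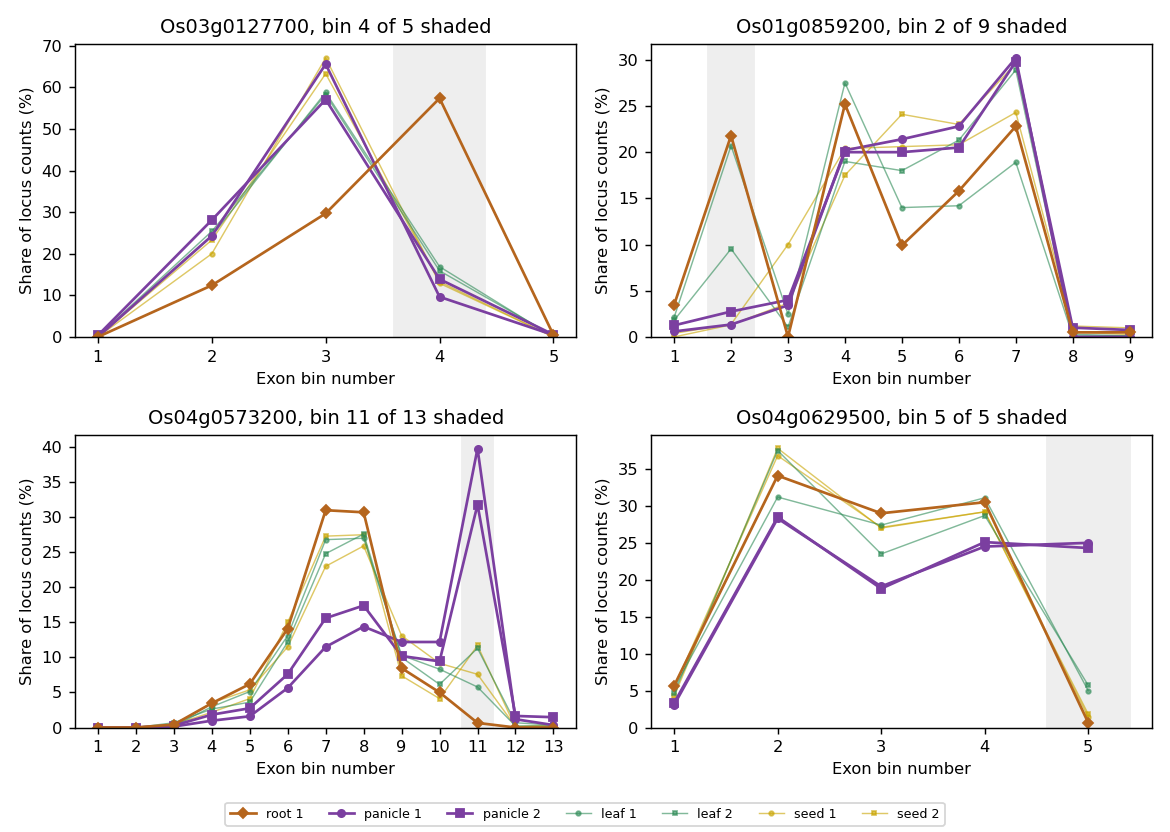
Share of the locus's counts in each exon bin (y axis, percent) along the bins of 4 loci (x axis, bin number) in all 7 libraries. Thick lines are root (brown) and panicle (purple), thin lines leaf (green) and seed (yellow), and the called bin is shaded. Root peaks at bin 4 of Os03g0127700, and both panicle libraries peak at bin 11 of Os04g0573200 and stay at 25.0% and 24.3% in bin 5 of Os04g0629500.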

How the data were processed

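TruSeq RNA kit libraries of mRNA were sequenced as read pairs on a HiSeq instrument, per the labels' protocols and the design text. Per the submitters' processing notes, the tools included HTSeq, Cufflinks, TopHat2 2.0.4, bcl2fastq 1.8.4, SAMtools 1.2 and Bowtie2, on build IRGSP-1.0. What each tool did, how strand was set and which reads were dropped is not given in the sources used. Values deposited by the authors are raw counts per exon bin (178317 bins of 37858 loci). The 5 rows that name no gene were left out. A read that spans bins adds to all of them. As strand is unknown, reads of overlapping or antisense loci cannot be separated.

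Bin counts were summed per locus and filtered with filterByExpr (minimum count 10, 1 library sufficing). The level test was the quasi-likelihood test of edgeR 4.0.16 (R 4.3.3; glmQLFit, glmQLFTest; TMM factors from 0.7808 to 1.514), fitted to all 7 libraries with 4 organ means and 3 residual degrees of freedom, and Benjamini-Hochberg adjustment over all loci. SE is the size of the log2 fold change divided by the root of its F value. Usage was tested with diffSpliceDGE on bins of loci with 2 or more kept bins. Folds against a count of 0 are bounds at 3 counts over the organ's libraries. Both tests were tested on simulated data.

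Alternatives were DESeq2 1.42.0, RLE factors, TMM without the 100 most abundant loci, no filter, the largest bin, only root and panicle libraries, other fold minimums, voom with diffSplice (limma 3.58.1), an F test per locus, a bin mean of 20 counts, a replicate block, and each library except root left out.

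Named loci are called loci with 100 CPM or more in the higher organ and 2-fold or more from each panicle library: the 2 with the largest smaller ratio in each direction, the 2 with the largest difference in percent of counts, and the most abundant of each on and off pattern. Named bins are the 2 largest share differences in each direction in loci with 200 counts or more in root and in each panicle library. Of the locus IDs, 1 matched the RefSeq table of assembly ASM3414082v1, so planned gene lists and longer lists of named genes were not run. The comparison, rules and lists were chosen with earlier results of these data known.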

Additional observations from a re-analysis of the deposited data

How the results depend on the processing

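Alternatives were run for the numbers of calls, the named loci and bins and the 8-fold counts, and none reversed a direction. Neighbours, runs, organ patterns, chromosomes, level classes and bin positions were computed at the main settings only. All 11 named loci kept their direction in 13 alternatives each and their call in 139 of 143 cases, with the 4 exceptions all at Os09g0551600. The 4 named bins kept their direction in 40 cases and their call in 29. Calls on level numbered from 7568 to 9680 with DESeq2, RLE factors, TMM without abundant loci, no filter, the largest bin, root and panicle libraries only, or the replicate block (7630), and 6167 at a 4-fold minimum. Dropping the fold minimum changed no count. Leaving out 1 library gave from 4111 to 10705 calls, 2545 to 6258 towards root and 1561 to 4447 towards panicle. Calls on usage came to 4 to 49 loci with 1 library left out, with 3 to 41 bins larger in root and 2 to 21 larger in panicle. Usage calls rose to 74 loci (56 and 41 bins) with voom and diffSplice, of which 18 were among the 23, to 163 loci (143 and 65 bins) with root and panicle libraries only, at 1 residual degree of freedom, and to 75 loci with the F test per locus. The cause was not tested. With 5 added to the CPM, 661 and 137 loci were 8-fold or more from both panicle libraries, since a larger constant shrinks the ratios of low loci.

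Whether replicate numbers pair the libraries is not known. Differences between replicates 1 and 2 correlated across loci at 0.111 between leaf and panicle, 0.208 between leaf and seed and 0.0472 between panicle and seed. Correlations across loci cannot show whether libraries of the same number were prepared together, and root has number 1 alone. With the replicate block, 24 loci were called for usage, 17 of them among the 23, and 4856 and 2774 loci for level. Root, with 1 library, could not be left out, so depth and spread of that library limit every comparison.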
